A study of Saccharomyces cerevisiae with 4 samples.

Results

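The genes described are 41 genes of meiosis and spore formation of the budding yeast Saccharomyces cerevisiae, chosen by a fixed list of systematic identifiers out of 7126 features in the gene count files. They were taken in 4 classes by the time at which sporulating cells are known to use them: 3 regulators, 24 early genes of recombination and chromosome pairing, 10 middle genes of the divisions and of spore formation, and 4 late genes of spore wall maturation. Polyadenylated RNA was sequenced from an xpo1-1 mex67-5 strain (n = 2 libraries) and from a wild-type strain (n = 2 libraries). The xpo1-1 mex67-5 strain carries mutant alleles of both Xpo1, a nuclear export receptor encoded by CRM1, and Mex67, through which most messenger RNA leaves the nucleus. For all 4 libraries, cells were grown overnight at 25 °C and then kept for 1 h at 37 °C, and none of the labels names a sporulation medium, the ploidy or the mating type. The study compared splicing between both strains. The groups are 2 strains, so differences of strain background and those that come from the mutations cannot be told apart.

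Sporulation is the response of diploid yeast to starvation. The transcription factor Ime1 switches on the early genes, which carry URS1 sites bound by Ume6, and the middle genes follow when the transcription factor Ndt80 binds middle sporulation elements in their promoters. In growing cells and in haploids these genes are known to be kept nearly silent, and several early transcripts are spliced well only with the help of the meiosis-specific protein Mer1.

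The libraries held 62205252 and 50843634 gene reads in the xpo1-1 mex67-5 strain, against 49865570 and 49321384 in the wild type. MEX67 itself had 1903 and 1947 CPM (reads per 1000000 scaled reads) in the mutant libraries, against 152 and 156 in the wild type, and CRM1 had 187 and 190.0 CPM in the mutant, against 217 and 220.4 in the wild type. Such alleles are still transcribed, so these values do not test the genotype. Markers of mating type also moved with the strain, in data where 46.8% of all genes tested were called higher and 46.3% lower. All 7 a-cell markers were called higher, with a summed level of 478 to 486 CPM in the mutant libraries and 65.3 to 66.0 CPM in the wild type. Of 5 alpha-cell markers, 4 were called lower and AFB1 higher, with a summed level of 458 to 474 CPM in the mutant and 1871 to 1873 CPM in the wild type. AFB1 alone gave 294 and 307 CPM of the mutant sums, against 145 and 142 CPM in the wild type. The sums therefore understate the fall of the other 4. None of the 12 markers was at 0 in any library, and the part of mating type in the results below was not tested.

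Early and middle genes differed in the letters of their promoters. The core of URS1, GGCGGC on either strand, lay between 250 bases before and 50 after the start codon in 15 of 24 early genes, 1 of 10 middle genes and 0 of 3 regulators and 4 late genes, beside 5.13% of 6001 nuclear protein-coding genes. The longer form TAGCCGCC, which contains the core, was found in 13 of the 24 early genes and in 1.17% of all genes. The middle sporulation element was searched on both strands in 4 forms. These are CACAAAA, a variant that ends in T (CACAAAT), a variant with G as the second base (CGCAAAA) and a variant with both changes (CGCAAAT). At least 1 of them lay in the same window in 7 of 10 middle genes, 2 of 24 early genes and 1 of 3 regulators (NDT80), beside 19.6% of all genes. The SPS1 match runs into the start codon. In the 250 bases before the start codon alone, 6 of 10 middle genes held a middle element, beside 17.1% of all genes. The URS1 core was there in 15 of 24 early genes, beside 4.17% of all genes. SMK1 held a match to both URS1 and the middle element. A match is a run of letters and not a mapped site.

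The following stretches, 40 or 41 bases of RefSeq build R64 read 5′ to 3′ on the strand of the gene, show the matches of 6 early genes and 4 genes with a middle element, with the match in capitals. A match on the other strand appears as its complement (GCCGCC, or a run that begins with TTTT or ATTT).
REC104: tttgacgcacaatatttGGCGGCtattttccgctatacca
DMC1: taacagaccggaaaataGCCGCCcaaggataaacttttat
MEI4: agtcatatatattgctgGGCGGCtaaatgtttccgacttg
SPO13: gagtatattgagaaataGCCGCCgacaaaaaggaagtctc
HOP1: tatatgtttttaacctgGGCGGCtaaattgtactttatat
PCH2: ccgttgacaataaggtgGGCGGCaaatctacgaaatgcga
SPO21: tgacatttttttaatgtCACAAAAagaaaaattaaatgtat
SPR3: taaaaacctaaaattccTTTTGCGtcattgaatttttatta
SMK1: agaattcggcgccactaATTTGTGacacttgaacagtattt
NDT80: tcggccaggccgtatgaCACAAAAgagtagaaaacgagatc
The REC104 stretch is chrVIII:412799-412838 on the plus strand, and its match begins 91 bases before the start codon. The DMC1 stretch is chrV:548266-548305 on the plus strand, with the match 138 bases before the start codon. The MEI4 stretch is chrV:239848-239887 on the minus strand, with the match 96 bases before. SPO13 lies at chrVIII:131935-131974 and HOP1 at chrIX:226414-226453, both plus, with matches 95 and 171 bases before the start codon. PCH2 lies at chrII:600441-600480, plus, with the match 95 bases before. SPO21 lies at chrXV:145201-145241, SPR3 at chrVII:607523-607563, SMK1 at chrXVI:666183-666223 and NDT80 at chrVIII:356325-356365, all plus, with matches 116, 23, 80 and 219 bases before the start codon.

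In the mutant strain most of these genes were higher. Each of the 41 passed the filter on low counts, and the fewest reads of any member were 68 in a mutant library (MEI5) and 43 in a wild-type library (SAE3). In edgeR's quasi-likelihood test over 6563 genes, with a Benjamini-Hochberg adjusted p under 0.05, 37 members rose, 2 fell (PCH2 and SPR6) and 2 were not called (MEI5 and NDT80). Over all genes tested, 93.1% were called: 46.8% were higher and 46.3% lower. The share of members called in either direction, 39 of 41, was thus near that of all genes, and the members are described below by direction and size. The median log2 change of the 41 was 1.66, against 0.01 over all genes tested. A rise of at least 2-fold was found in 27 members, where 27.8% of all genes passed that size, and a fall of at least 2-fold in the same 2 that fell, where 25.5% did. In 40 of 41 members, MEI5 being the exception, the mutant libraries lay wholly on 1 side of the wild type, as they did in 96.4% of all genes. In a bulk sample, more cells with a transcript and more transcript per cell cannot be told apart. CPM also give each gene's share of the reads and not an amount per cell. A gain of a transcript and a loss of other transcripts therefore cannot be told apart either.

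**Figure D1:**
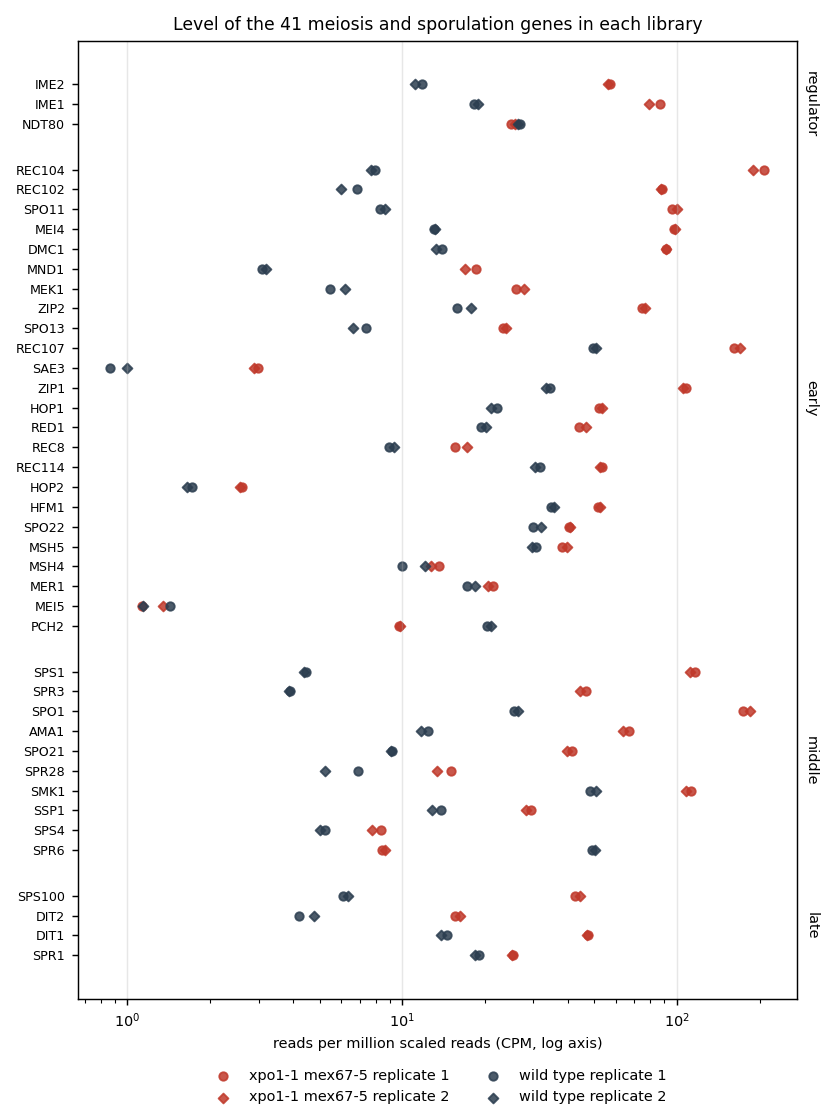
Level of each of the 41 genes in every library, in CPM on a log axis, by class and, within a class, from the largest rise to the largest fall. Circles are replicate 1 and diamonds replicate 2; the mutant libraries lie to the right of the wild-type libraries in the 37 genes that rose, and to the left in PCH2 and SPR6.

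The rise was from low levels. Levels were set on a scale of CPM per kilobase of coding sequence (RPKM) and ranked among 5856 genes. On that scale the median member stood at percentile 24.7 in the mutant and 7.48 in the wild type. In the lowest 25% of genes there were 22 members in the mutant and 38 in the wild type. Above the median of all genes there were 10 members in the mutant and 1 in the wild type, which was SPR6. Summed over the 41, the members made up 2258 and 2239 CPM in the mutant libraries, against 675 and 679 CPM in the wild type, a ratio of 3.32.

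**Figure D2:**
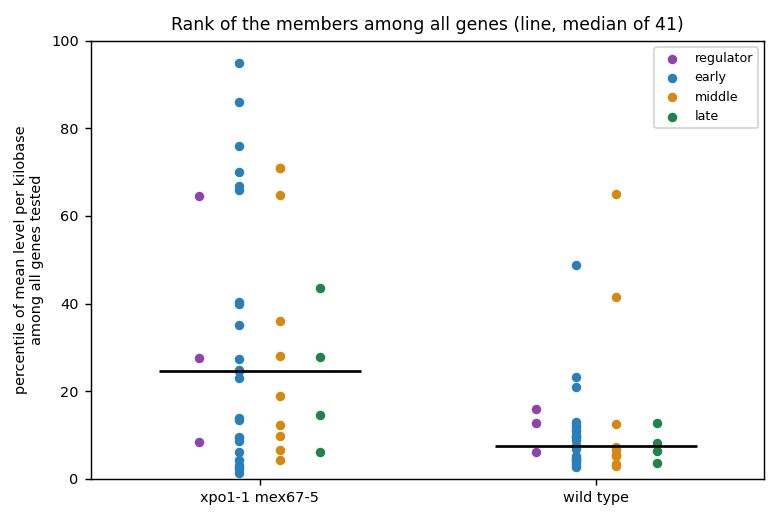
Percentile of each member among 5856 genes by mean level per kilobase, for the mutant strain on the left and the wild type on the right, with points coloured by class. The line is the median of the 41 members, at 24.7 in the mutant and 7.48 in the wild type.

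Of the regulators, both that act at entry into meiosis rose and the one that acts later did not pass the test. Positions given with a gene are those of its coding region in build R64. IME1, the master transcription factor of meiosis (YJR094C, chromosome X, 604569 to 605651), had 87.0 and 78.9 CPM in the mutant libraries, against 18.3 and 18.9 CPM in the wild type. The mutant libraries were both above the wild type, a 4.47-fold rise (log2 2.16, SE 0.05). IME2, the protein kinase that acts with and after Ime1 (YJL106W, chromosome X, 221390 to 223327), had 57.1 and 56.1 CPM in the mutant and 11.8 and 11.1 CPM in the wild type, a 4.93-fold rise. For both, the edgeR quasi-likelihood adjusted p was at most 9.5e-17. NDT80, the transcription factor of the middle genes (YHR124W, chromosome VIII, 356561 to 358444), had 25.0 and 25.7 CPM in the mutant, against 26.9 and 26.4 CPM in the wild type. Its log2 change of -0.07 had a 95% interval of -0.19 to 0.04 (edgeR adjusted p = 0.19), and its direction turned under upper-quartile scaling (log2 0.03). Thus a rise of NDT80 as large as that of IME1 lies outside its interval.

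Of the 24 early genes 22 were called higher (91.7%), beside 46.8% of all genes tested, and their median log2 change was 1.47. They can be read by role, a grouping made with the values known and given without a test. All 6 genes for the formation of meiotic DNA breaks rose, with a median of 3.22. All 5 genes of the chromosome axis and of cohesion rose (median 1.29), as did all 6 of synapsis and crossover formation (median 0.48). Of 5 strand exchange genes 4 rose (median 1.66). The 2 genes of meiotic splicing and checkpoint, MER1 and PCH2, went in opposite directions, 1 higher and 1 lower (median -0.43).

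Among the break genes, REC104, a subunit of the break-forming complex (YHR157W, chromosome VIII, 412907 to 413455), had 208 and 188 CPM in the mutant libraries and 7.95 and 7.67 CPM in the wild type. That is a 25.4-fold rise, and per kilobase it placed REC104 at percentile 94.9 of all genes in the mutant and 12.9 in the wild type. REC102, its partner (YLR329W, chromosome XII, 786442 to 787333), had 88.5 and 87.4 CPM in the mutant, against 6.86 and 5.97 CPM in the wild type, a 13.7-fold rise. SPO11, which encodes the enzyme that makes the breaks (YHL022C, chromosome VIII, 62961 to 64157), had 96.3 and 100.1 CPM in the mutant and 8.27 and 8.69 CPM in the wild type, 11.6-fold higher. In these genes the libraries of each strain lay close together and far from those of the other. MEI4, another break factor (YER044C-A, chromosome V, 238460 to 239774), had 97.6 and 98.6 CPM in the mutant and 13.0 and 13.2 CPM in the wild type, 7.48-fold higher. REC107, also called MER2 (YJR021C, chromosome X, 468555 to 469579), had 161 and 169.7 CPM in the mutant, against 49.6 and 50.8 CPM in the wild type. It was the early gene with the highest level per kilobase in the wild type, at percentile 48.8, and rose 3.29-fold. REC114, which works with Mei4 and Rec107, rose 1.71-fold. The edgeR adjusted p was at most 2.7e-11 in these 6 genes.

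The strand exchange genes are DMC1 and 2 pairs of partners. DMC1, the meiotic recombinase (YER179W, chromosome V, 548421 to 549517), had 91.2 and 91.2 CPM in the mutant libraries and 14.0 and 13.3 CPM in the wild type, a 6.68-fold rise. MND1 and HOP2 encode partners in 1 complex that assists Dmc1. MND1 (YGL183C, chromosome VII, 156543 to 157285) had 18.6 and 16.9 CPM in the mutant, against 3.09 and 3.19 CPM in the wild type, 5.66-fold higher (edgeR adjusted p = 3.3e-14). HOP2 rose 1.54-fold, at 2.61 and 2.57 CPM in the mutant and 1.71 and 1.64 CPM in the wild type (edgeR adjusted p = 0.0011). SAE3 and MEI5 likewise encode partners that load Dmc1. SAE3 had 2.99 and 2.88 CPM in the mutant, against 0.867 and 0.995 CPM in the wild type, and rose 3.15-fold. MEI5 (YPL121C, chromosome XVI, 320962 to 321630) had 1.13 and 1.34 CPM in the mutant and 1.43 and 1.14 CPM in the wild type, so its libraries overlapped. Its log2 change of -0.07 had a 95% interval of -0.50 to 0.37 (edgeR adjusted p = 0.76), its direction turned in 3 of the alternative settings, and it was the lowest member in the mutant at 1.85 RPKM. The changes of partners were not tested against each other.

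The 5 genes of the axis and the 6 of synapsis rose between 1.19-fold and 4.60-fold, a range that overlaps those of the break and strand exchange genes. MEK1, a kinase that directs repair to the homologous chromosome, rose 4.60-fold to a mean of 26.9 ± 1.21 CPM (SD, n = 2) in the mutant, against 5.83 ± 0.511 CPM in the wild type. SPO13, needed for the first division to separate homologs, rose 3.36-fold, HOP1 2.44-fold and RED1, which with Hop1 builds the chromosome axis, 2.29-fold. REC8, the meiotic cohesin subunit, rose 1.79-fold. ZIP1, the central protein of the synaptonemal complex, had 107 ± 1.70 CPM in the mutant and 33.9 ± 0.885 CPM in the wild type (SD, n = 2 each), a 3.15-fold rise. ZIP2, which promotes synapsis, rose 4.50-fold; the annotated antisense RNA RME3 overlaps it, and reads of both strands were counted alike. HFM1, the crossover helicase also called MER3, rose 1.48-fold, and MSH5 1.29-fold. SPO22, also called ZIP4 (YIL073C, chromosome IX, 222937 to 225954), had 2544 and 2058 reads in the mutant libraries and 1485 and 1574 reads in the wild type. Scaled, it had 40.5 ± 0.14 CPM in the mutant and 31.0 ± 1.41 CPM in the wild type (SD, n = 2 each), a 1.31-fold rise (edgeR adjusted p = 8.1e-07). HFM1, MSH5 and SPO22 thus differed by less than 2-fold between strains, although their libraries did not overlap. MSH4, the partner of Msh5, had 13.6 and 12.7 CPM in the mutant, against 10.0 and 12.1 CPM in the wild type. Its 1.19-fold rise (edgeR adjusted p = 0.012) was lost without mutant replicate 1 (0.19), without mutant replicate 2 (0.065) and without wild-type replicate 1 (0.26). MER1, the splicing factor of meiosis, rose 1.18-fold, at 21.3 and 20.5 CPM in the mutant and 17.3 and 18.3 CPM in the wild type (edgeR adjusted p = 0.0018).

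PCH2 was the only early gene that fell. It encodes an ATPase of the pachytene checkpoint that removes Hop1 from chromosomes (YBR186W, chromosome II, 600553 to 602360). It had 9.70 and 9.78 CPM in the mutant libraries, against 20.4 and 21.0 CPM in the wild type, a log2 change of -1.09 (SE 0.07, edgeR adjusted p = 4.4e-11). Its promoter holds the URS1 core shown above, as do those of 13 early genes that rose. The 15 early genes with the core had a median log2 change of 1.29, and the 9 without it a median of 1.72, so the median was lower in genes with these letters in the window.

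Of the 10 middle genes 9 were called higher, beside 46.8% of all genes tested, and their median log2 change was 1.69. SPS1, a protein kinase of spore formation (YDR523C, chromosome IV, 1485566 to 1487038), had 117 and 111 CPM in the mutant libraries, against 4.48 and 4.38 CPM in the wild type. This 25.7-fold rise was the largest of the 41, and per kilobase SPS1 stood at percentile 64.9 in the mutant and 3.42 in the wild type. SPR3, a septin of the forming spore (YGR059W, chromosome VII, 607563 to 609101), had 46.5 and 44.3 CPM in the mutant and 3.91 and 3.86 CPM in the wild type, 11.7-fold higher. The other sporulation septin, SPR28, rose 2.34-fold, at 15.1 and 13.4 CPM in the mutant and 6.90 and 5.26 CPM in the wild type. SPO1, a phospholipase-like protein needed for spore formation (YNL012W, chromosome XIV, 609686 to 611665), had 174 and 184 CPM in the mutant, against 25.5 and 26.5 CPM in the wild type, 6.88-fold higher. AMA1, the meiotic activator of the anaphase-promoting complex (YGR225W, chromosome VII, 945145 to 947019), had 66.7 and 63.4 CPM in the mutant and 12.4 and 11.8 CPM in the wild type, 5.40-fold higher. SPO21, a part of the meiotic spindle pole (YOL091W, chromosome XV, 145334 to 147163), had 41.4 and 39.8 CPM in the mutant and 9.16 and 9.09 CPM in the wild type, 4.45-fold higher. Of the rest, the spore wall kinase SMK1 rose 2.22-fold, SPS4 rose 1.57-fold, and SSP1, which shapes the edge of the spore membrane, rose by 1.11 on the log2 scale. In the 9 genes that rose the edgeR adjusted p was at most 6.1e-06.

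SPR6, a gene of unknown function known for its expression in sporulation (YER115C, chromosome V, 394292 to 394867), went the other way. It had 8.43 and 8.63 CPM in the mutant libraries and 49.0 and 50.3 CPM in the wild type, 5.83-fold lower (log2 -2.54, edgeR adjusted p = 1.9e-17). In the wild type it was the member with the highest level per kilobase, with a level of 14.8 RPKM in the mutant and 86.2 RPKM in the wild type. The 7 middle genes with a middle element had a median log2 change of 1.23 and the 3 without one 2.43, SPO1, AMA1 and SPR6.

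All 4 late genes rose, beside 46.8% of all genes tested, with a median log2 change of 1.78. SPS100, a protein of spore wall maturation (YHR139C, chromosome VIII, 378219 to 379199), had 42.4 and 44.5 CPM in the mutant libraries and 6.07 and 6.33 CPM in the wild type, a 6.99-fold rise; the antisense transcript SUT169 overlaps it. DIT1 and DIT2, both needed to make the dityrosine layer of the spore wall, are read away from a shared stretch of 898 bases on chromosome IV. DIT1 (YDR403W, 1274602 to 1276212) had 47.6 and 46.9 CPM in the mutant, against 14.5 and 13.8 CPM in the wild type, 3.33-fold higher. DIT2, a cytochrome P450 (YDR402C, 1272234 to 1273703), had 15.6 and 16.2 CPM in the mutant and 4.20 and 4.79 CPM in the wild type, 3.54-fold higher. SPR1, a glucanase (YOR190W, chromosome XV, 690695 to 692032), had 25.2 and 25.0 CPM in the mutant and 19.0 and 18.5 CPM in the wild type, 1.34-fold higher (edgeR adjusted p = 1.6e-06).

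Middle and late genes did not stand apart from early genes. The 14 middle and late genes had a median log2 change of 1.78, with 13 higher and 1 lower, and the 24 early genes a median of 1.47, with 22 higher and 1 lower. The ranges of the classes overlapped, from -1.09 to 4.67 in early genes, from -2.54 to 4.68 in middle genes and from 0.42 to 2.81 in late genes. Summed by class, reads were 3.37-fold higher in the mutant for early genes, 3.42-fold for middle genes and 3.02-fold for late genes. Without SPO1, SPR6 and AMA1, whose time of use is the least certain, the middle median was 1.23. NDT80 RNA was not called in the same comparison. Ndt80 protein was not measured, and a relation of NDT80 to the change of the middle genes was not tested.

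**Figure D3:**
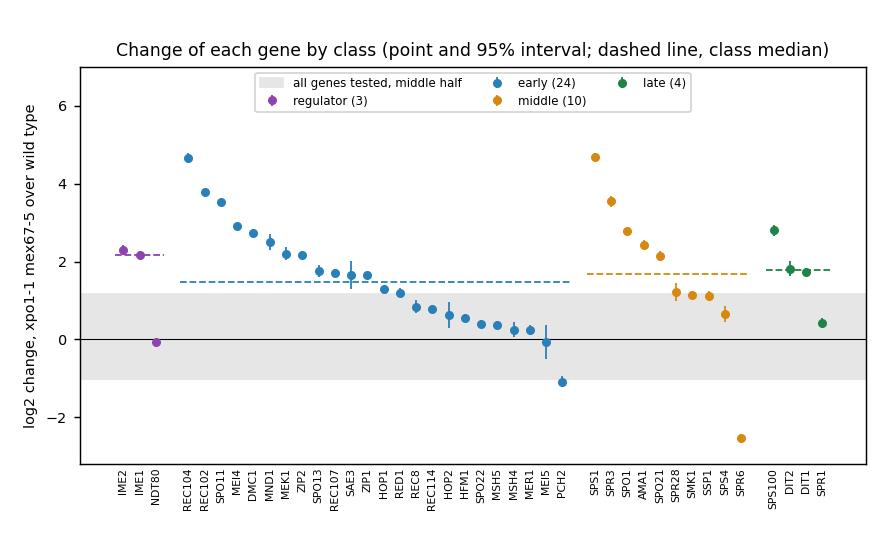
Log2 change of each gene, mutant over wild type, with its 95% interval, in 4 classes; dashed lines are the class medians of 2.16 for regulators, 1.47 for early, 1.69 for middle and 1.78 for late genes. The grey band spans the quartiles of all 6563 genes, from -1.03 to 1.16; the classes overlap, and PCH2 and SPR6 lie below it.

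Introns are frequent among these genes: 13 of 41 (31.7%) have one, against 5.30% of 6002 nuclear protein-coding genes. Of their 13 records in the intron files, 8 lie on chromosomes where every record was at 0 in all libraries and are not used here. The 5 others are those of SPO22, MEI4, REC107, DMC1 and PCH2. The sequences of these 5 are shown with the letters that splicing uses. The usual first 6 bases of yeast introns, GTATGT, open 6 of 13 member introns and 63.0% of 324 introns with a RefSeq end; no relation of these letters to the ratios was tested. The core of the Mer1 enhancer, ATACCCT or ACACCCT on the transcribed strand, occurs in 4 of the 13 and in 2.16% of the 324. HFM1 and AMA1 are added as the other carriers of it. Capitals mark, in order, the first 6 bases, the Mer1 core where there is one, the closest match to the branch site TACTAAC and the last 3 bases.
SPO22: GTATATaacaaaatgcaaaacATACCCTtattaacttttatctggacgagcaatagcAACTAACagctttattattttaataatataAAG
REC107: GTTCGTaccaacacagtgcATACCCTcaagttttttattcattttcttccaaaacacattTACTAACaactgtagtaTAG
MEI4: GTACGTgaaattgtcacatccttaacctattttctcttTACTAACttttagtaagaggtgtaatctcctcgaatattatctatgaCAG
DMC1: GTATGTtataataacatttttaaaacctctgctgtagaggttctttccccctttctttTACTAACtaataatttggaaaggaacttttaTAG
PCH2: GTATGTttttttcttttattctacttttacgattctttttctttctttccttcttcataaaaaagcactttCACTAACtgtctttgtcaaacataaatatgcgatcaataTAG
HFM1: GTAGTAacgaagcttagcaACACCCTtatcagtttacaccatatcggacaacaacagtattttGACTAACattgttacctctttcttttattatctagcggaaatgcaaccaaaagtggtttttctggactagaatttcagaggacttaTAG
AMA1: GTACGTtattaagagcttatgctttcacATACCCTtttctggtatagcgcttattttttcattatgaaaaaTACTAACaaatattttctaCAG
They are, in build R64, chrIX:225810-225899 (minus strand) for SPO22, chrX:469184-469263 (minus) for REC107, chrV:239624-239711 (minus) for MEI4, chrV:548553-548644 (plus) for DMC1, chrII:602104-602216 (plus) for PCH2, chrVII:31427-31578 (minus) for HFM1 and chrVII:946328-946420 (plus) for AMA1.

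The study's own question was splicing, and reads of an intron were set against reads of its gene. In the mutant 3 of the 5 introns were higher relative to their gene, SPO22, MEI4 and REC107, and DMC1 and PCH2 were not called. The calls of REC107 and DMC1 changed when a library was left out. Of all 135 introns tested, 78.5% were called higher and 8.15% lower, with a median log2 change of 1.03, against a median of 0.48 for the 5. The share of member introns called higher was therefore no larger than that of all introns.

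The SPO22 intron had 19.3 and 21.4 reads per 1000 gene reads in the mutant libraries, against 6.73 and 1.91 in the wild type. The ratio was 4.69-fold higher (edgeR adjusted p = 1.5e-04), but it rests on 10 and 3 wild-type intron reads: the log2 change was 2.23 with all libraries, 3.36 when wild-type replicate 1 was left out and 1.57 when wild-type replicate 2 was. The MEI4 intron had 96.3 and 95.9 reads per 1000 gene reads in the mutant and 45.0 and 38.4 in the wild type, 2.30-fold higher (log2 1.20, SE 0.16, edgeR adjusted p = 1.9e-05). Per base, its intron held 134% and 134% of the read density of the coding sequence in the mutant, against 62.7% and 53.5% in the wild type. The sources used here do not say how a read of 50 bases that crosses an intron edge was counted, so these densities compare strains and are no share of unspliced RNA. The REC107 intron had 78.8 and 70.2 reads per 1000 gene reads in the mutant, against 59.7 and 55.5 in the wild type. The 1.29-fold difference (edgeR adjusted p = 0.0061) was lost without wild-type replicate 2 (0.062).

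The DMC1 intron had 59.8 and 53.7 reads per 1000 gene reads in the mutant and 27.4 and 55.0 in the wild type, whose libraries overlapped the mutant (edgeR adjusted p = 0.073). Its log2 change of 0.48 was 1.05 without wild-type replicate 2 (adjusted p = 0.0033) and 0.05 without wild-type replicate 1 (0.87), and it also passed without mutant replicate 2 (0.016). The PCH2 intron had 62.3 and 70.7 reads per 1000 gene reads in the mutant and 58.3 and 81.3 in the wild type, with a log2 change of -0.08 and a 95% interval of -0.54 to 0.38 (edgeR adjusted p = 0.72). In PCH2 the intron density was 93.4% and 106% of that of the coding sequence in the mutant and 87.5% and 122% in the wild type, so intron reads were about as dense as coding reads in both strains.

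**Figure D4:**
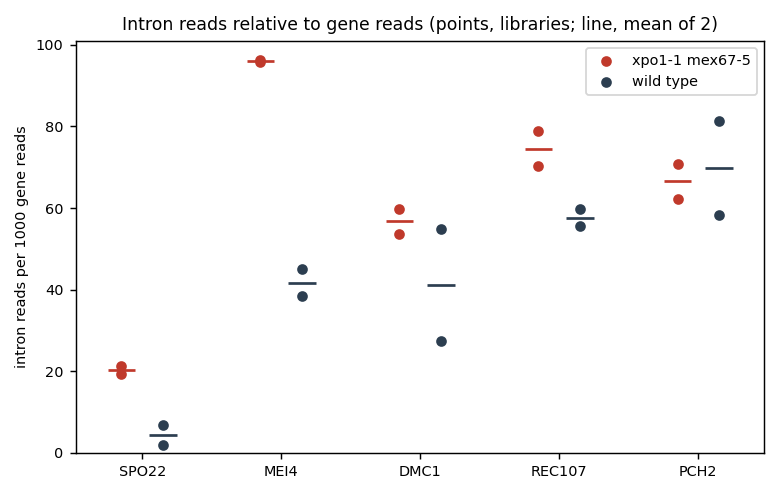
Intron reads per 1000 gene reads for the 5 introns with counts, mutant libraries to the left of wild-type libraries; points are libraries and lines the means of 2. SPO22, MEI4 and REC107 do not overlap between strains, while DMC1 and PCH2 do.

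Further genes of the pathway were taken from lists outside the 41. Of 37 other spore formation genes, 31 were called higher (83.8%) and 5 lower (13.5%), with a median log2 change of 1.51. Over all genes tested the shares were 46.8% and 46.3%. SPO23 had 217 and 206 CPM in the mutant libraries, against 9.97 and 10.2 CPM in the wild type, a 21.0-fold rise. MUM3, needed for the outer spore wall, had 163 and 173 CPM in the mutant and 12.1 and 12.3 CPM in the wild type, and RRT8 rose 7.17-fold. Of 9 other meiotic chromosome genes 5 were higher (55.6%) and 3 lower (33.3%), with a median of 0.60. These shares were nearer to those of all genes, and the list as a set showed no clear direction. RDH54, a recombination ATPase that also works outside meiosis, had 2919 and 3073 CPM in the mutant and 157 and 158 CPM in the wild type, and MAM1, which orients sister chromosomes in the first division, rose 10.4-fold. NDJ1, of meiotic telomeres, fell to 8.70 and 7.94 CPM in the mutant, against 26.9 and 28.2 CPM in the wild type.

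Regulators of entry outside the 41 went in both directions, with 19 of 30 higher (63.3%), 8 lower (26.7%) and a median log2 change of 0.24. Over all genes tested 46.8% were higher and 46.3% lower. XBP1, a stress-induced repressor, rose 15.9-fold, RIM15, a kinase that promotes entry into meiosis when nutrients are short, 9.33-fold and RIM4, a meiotic RNA-binding protein, 6.66-fold. RME1, the repressor of IME1 in haploid cells, had 61.5 and 62.7 CPM in the mutant libraries, against 73.2 and 76.7 CPM in the wild type, a log2 change of -0.27 (edgeR adjusted p = 3.9e-06). UME6, the factor bound to URS1, had 114 and 115 CPM in the mutant and 95.9 and 98.2 CPM in the wild type, a log2 change of 0.23 (edgeR adjusted p = 8.8e-06). SUM1, HST1 and RFM1, which repress middle genes together, were named after their values were seen. They changed by -0.50, -0.48 and -0.29 on the log2 scale and were each called lower. These changes lie within the quartiles of all genes tested, from -1.03 to 1.16. Of the 8 list members called lower, RIM21 fell most (log2 -1.20). A relation of these changes to the middle genes was not tested.

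**Figure D5:**
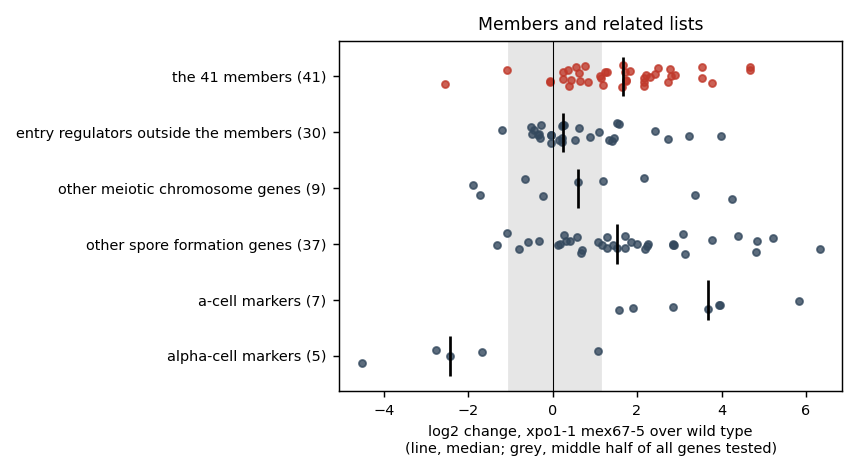
Log2 change, mutant over wild type, of the 41 members and of 5 related lists, with the number of genes in brackets; each point is a gene, the line is the list's median and the grey band spans the quartiles of all genes tested. The 37 other spore formation genes have a median of 1.51 and the 30 entry regulators one of 0.24.

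The kit did not mark strand, so the nearest protein-coding gene on each side was set beside each member. Of 76 such neighbours that were tested and are no members, 38 were called higher and 32 lower, with a median log2 change of 0.06. Over all genes tested 46.8% were higher and 46.3% lower, so the neighbours were near the shares of all genes. Of the 37 members that rose, 15 had a higher neighbour on both sides, 12 on 1 side and 10 on neither. In this split, neighbours that are members were counted too: HOP1 and SPO22 flank each other, as do DIT1 and DIT2. IME1 rose between FIP1, which fell by 0.41 on the log2 scale, and the ribosomal protein gene RPL43B, which fell by 4.76. RED1 likewise rose between TMA7 and RPS28B, with log2 changes of -3.13 and -4.84. Beside SPO11, AIM17 changed by 3.88 on the log2 scale and lies 304 bases upstream on the same strand. NPR3 on the other side of SPO11 was not called (0.00). REC104 lies 500 bases from LIN1, which is upstream on the opposite strand and changed by 3.36. SPS1 lies 262 bases from SPS2, also a spore wall gene, which is downstream on the same strand and changed by 2.19. Other members that rose lay beside such genes too: REC107 beside LSM8 (204 bases, log2 3.70), MND1 beside STR3 (530 bases, 3.50) and SPO1 beside HEF3 (232 bases, 2.22). HOP2, which had 81 to 164 reads per library and changed by 0.62, lies 168 bases from the a-cell marker AGA2. AGA2 changed by 2.84, and YGL034C on the other side of HOP2 by 2.57. Whether reads of neighbours reach into members was not tested.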

How the data were processed

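Per the labels, poly(A) RNA was prepared with a TruSeq RNA kit (v2) and read as single reads of 50 bases. For every library the authors deposited 2 lists of raw counts, 1 by gene and 1 by intron, both whole numbers. Tools named in the submitters' processing notes are bcl2fastq (2.17), STAR (2.5), featureCounts and DESeq2 (1.8.2), with build R64; no role is stated for them. The sources used here do not say how reads with several places, overlaps of genes or intron edges were treated. Separate cultures are not stated in the labels either, and p-values therefore measure only how far these libraries spread, and that spread may be technical.

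Genes were tested with edgeR 4.0.16 in R 4.3.3 (filterByExpr, TMM, robust quasi-likelihood F-test, two-sided, Benjamini-Hochberg over 6563 genes at 0.05, group as the model). CPM are reads per 1000000 scaled reads. Intron ratios were the interaction of feature and group with a term per library, over 135 introns with at least 10 reads over the 4 libraries. Intervals are 95% and cover the spread between libraries. Promoters and introns were read from the RefSeq genome of build R64; RefSeq starts are start codons. Classes and lists come from general knowledge. The members and lists were chosen with earlier results of these data known. Full values are given for the regulators, the 6 early and 5 middle genes with the largest rise, those that fell or were not called, the late genes and those with a counted intron; values of other members were added after they were seen. From each pathway list the 3 genes with the smallest adjusted p, RME1 and UME6 are named. The steps were tried on simulated counts in which few genes changed. Of 50 genes changed 2-fold, 98% were recovered among 6563 tested, and of 30 introns changed 3-fold, 96.7% among 135. In the data 93.1% of genes were called, and recovery with that many changes was not tested. The simulated introns were given the median spread of genes and changed upward only, and in the data 78.5% of introns were called higher. Recovery at the introns' own spread, or with that many changed introns, was not tested. Figures were drawn with matplotlib 3.10.9.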

Additional observations from a re-analysis of the deposited data

How the results depend on the processing

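The members were re-tested under other scalings, DESeq2 1.42.0, other filters and a replicate block, and without each library in turn. The numbers of higher and lower members stayed at 37 and 2 in all of these except without a library, where 36 to 37 were higher. Upper-quartile scaling moved the median of all genes by 0.10 on the log2 scale, and with it the medians of all members (1.76), regulators (2.26), early (1.57), middle (1.79) and late genes (1.88), other entry regulators (0.34) and other spore formation genes (1.61). A filter at a mean of 1 CPM gave 1.71, 2.21, 1.52, 1.83 and 0.29 for all members, regulators, early genes, late genes and other entry regulators. Leaving out a library gave medians of 2.08 to 2.23 for regulators, 1.63 to 1.79 for middle genes, 1.75 to 1.81 for late genes and 0.22 to 0.27 for other entry regulators. Without SPO1, SPR6 and AMA1 the middle genes had a median of 1.23 and 0 lower. Some changes of features that were not called turned in direction. Under upper-quartile scaling NDT80 changed by 0.027 and MEI5 by 0.034 on the log2 scale. Leaving out a library gave -0.23 to 0.10 for MEI5 and -0.30 to 0.18 for the intron ratio of PCH2.

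The labels state nothing that same-numbered libraries share except the number, and their deviations from the group means correlated at -0.05. With 1 difference per group, this value cannot show whether they were grown or prepared together. With the replicate block 37 members were called higher and 2 lower, and the block in the ratio model, an alternative chosen after seeing the data, added DMC1 (log2 0.48, adjusted p = 0.025), as did the gene count as an offset (0.48, 0.047). Intron reads alone with the block, which do not correct for the gene, were lower in 1 intron (PCH2, log2 -1.14). With 2 libraries a group the lone library left in a group is assumed to vary like the others. Most of the intron ratios rest on few intron reads. In the wild type there were 10 and 3 for SPO22, 29 and 25 for MEI4 and 19 and 36 for DMC1. For PCH2 the mutant had fewer, 38 and 35, against 59 and 84 in the wild type. REC107 had more, 147 and 139 in the wild type.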
